A study of Drosophila melanogaster with 6 samples.

Results

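The genes of sex determination and dosage compensation in Drosophila melanogaster were followed through 6 libraries of developing flight muscle. The 10 genes, taken by symbol from the 17494 genes of the count table, were the RNA subunits of the male-specific lethal (MSL) complex (roX1 and roX2), its protein subunits (msl-1, msl-2, msl-3, mle and mof) and the sex determination genes Sxl, tra and dsx. All 10 were present in the table, and all 10 passed the filter on low counts. The members were selected on the roX1 counts of the WT libraries, because roX1 was seen in WT replicate 3 and hardly at all in WT replicates 1 and 2. The roX1 values and the contrast of WT replicate 3 with WT replicates 1 and 2 are therefore given as a description, with no test.

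The muscles were dorsolongitudinal indirect flight muscles, hand-dissected from pupae staged at 25 °C to 64 h after puparium formation (APF). Both groups carried the Mef2-GAL4 driver, which is active in muscle at all myogenic stages, and each had 3 libraries. WT pupae carried the driver with no RNAi transgene, whereas M1BP RNAi pupae also carried a transgene against M1BP, a DNA-binding regulator found at promoters of housekeeping genes. Each library pooled 6 to 8 pupae. The sex of the pupae was not given in the sources used here, so no library was assigned a sex and the number of males in a pool is unknown.

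In flies the X to autosome balance sets the state of Sxl, an RNA-binding protein made in females. Sxl directs the splicing of tra and of its own transcript, Tra in turn directs the splicing of dsx, and Sxl blocks production of the Msl-2 protein. In males, where functional Sxl is missing, Msl-2 assembles with Msl-1, Msl-3, Mle, Mof and a roX RNA on the single X chromosome, and acetylation of histone H4 by Mof accompanies raised transcription of X-linked genes. The roX RNAs are abundant in male somatic tissue and scarce in female tissue.

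The libraries held between 42215400 and 54890681 counts in genes, so that a count of 3, taken as the floor of detection, was between 0.0542 and 0.103 CPM (counts per 1000000 counts). CPM were scaled by the trimmed mean of M-values (TMM), and intervals on counts are exact Poisson intervals at 95%, which cover counting error only. Genes of the mitochondrial genome took 15.1% to 44.2% of the counts, with the most in WT replicate 2 and 26.2% and 26.3% in WT replicates 1 and 3. The flight muscle genes Act88F, fln and TpnC4 were abundant in every library, and the summed level of 9 flight muscle markers was between 150515 and 165159 CPM in WT and between 110027 and 111580 CPM in M1BP RNAi. M1BP, the depleted gene, was at 8.00 ± 0.946 CPM in WT and 3.07 ± 0.470 CPM in M1BP RNAi (SD, n = 3). Its log2 fold change was -1.38 ± 0.15 (SE, edgeR adjusted p = 9.54e-04, and 0.00198 to 0.00841 when any 1 library was left out). WT replicate 3 stood apart from the other WT libraries in roX1, and the log2 fold change of each member is given with and without it. The choice of genes rests on that library, so p-values of members from fits without it only describe its weight. Nothing in the labels says whether the libraries came from separate crosses, so p-values measure only the spread between these pools.

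The roX RNAs were close to absent from 2 of the 6 libraries and abundant in the other 4. roX1 (X, 3857230 to 3862697, minus strand, dm6) is a long non-coding RNA that scaffolds the MSL complex and marks sites where it enters the X. It held 2, 6 and 884 counts in WT replicates 1, 2 and 3, against 1698, 1507 and 3210 counts in M1BP RNAi replicates 1, 2 and 3. As scaled levels these were 0.0414, 0.206 and 22.3 CPM in WT and 30.7, 30.2 and 63.1 CPM in M1BP RNAi. The M1BP RNAi libraries were all above the highest WT library, but WT replicate 3 was far closer to them than to its own group. The 2 counts of WT replicate 1 were below the floor, and their interval ran from 0.0050 to 0.149 CPM.

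Set against WT replicates 1 and 2 together, which held 8 roX1 counts, roX1 was 215-fold higher in WT replicate 3 (95% counting interval 109 to 499). The ratio was 297 (151 to 688) in M1BP RNAi replicate 1, 292 (148 to 677) in replicate 2 and 611 (310 to 1415) in replicate 3. The 4 ratios share that denominator of 8 counts, which sets most of the width of their intervals. WT replicate 3 had the lowest roX1 level of the 4 libraries and M1BP RNAi replicate 3 the highest. The group means were 7.50 ± 12.8 CPM in WT and 41.3 ± 18.8 CPM in M1BP RNAi (SD, n = 3). The fitted log2 fold change was 2.45 with all 6 libraries and 8.63 without WT replicate 3, so this 1 library made the group difference far smaller.

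roX2 (X, 11579065 to 11580432, plus strand), the shorter RNA subunit, which can stand in for roX1 in the complex, followed the same division. It held 0, 0 and 191 counts in WT and 134, 193 and 295 counts in M1BP RNAi, or 0, 0 and 4.81 CPM against 2.42, 3.87 and 5.80 CPM. WT replicate 3 lay inside the range of the M1BP RNAi libraries, so the groups overlapped. Against the floor of 3 counts over WT replicates 1 and 2 together, roX2 was 124-fold higher in WT replicate 3. It was 62.5-, 99.8- and 150-fold higher in M1BP RNAi replicates 1, 2 and 3. These folds put 3 counts where 0 were seen and leave out counting error, so they are no lower bounds.

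The roX2 difference between groups did not pass the test. Its means were 1.60 ± 2.78 CPM in WT and 4.03 ± 1.69 CPM in M1BP RNAi (SD, n = 3), and the log2 fold change was 1.31 ± 1.40 (SE, adjusted p = 0.533 in edgeR and 0.791 in DESeq2). Without WT replicate 3 the fitted log2 fold change was 10.57 (edgeR adjusted p = 0.00137), a value that is no bound, since both remaining WT libraries held 0 counts. The choice of genes rests on that library, so this p describes its weight in the comparison and is no test of roX2. The log2 fold change was 0.71 without WT replicate 1 and 0.76 without WT replicate 2. The ratio of roX2 to roX1 counts within a library was 0.216 in WT replicate 3 and between 0.0789 and 0.128 in the M1BP RNAi libraries, so the single WT library that carried the RNAs carried relatively more roX2.

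**Figure D1:**
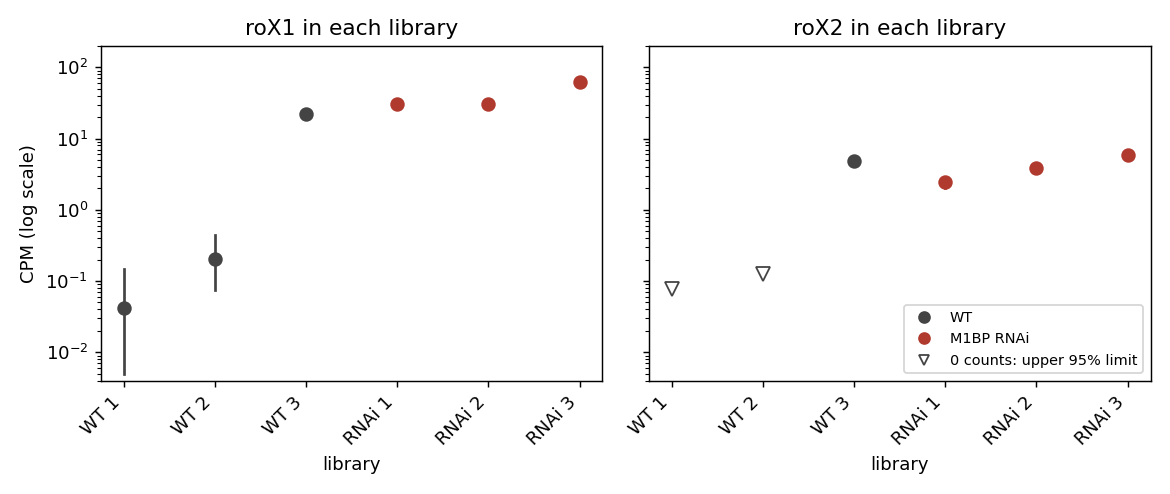
Levels of roX1 and roX2 in each of the 6 libraries, in CPM on a log axis, with vertical lines for 95% Poisson intervals and open triangles for the upper 95% limit where the count was 0. WT replicates 1 and 2 lie far below the rest, whereas WT replicate 3 (22.3 CPM roX1, 4.81 CPM roX2) lies with the M1BP RNAi libraries.

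Transcripts of some testis genes, though not of the whole list, divided the libraries as the roX RNAs did. dj, a sperm tail gene, held 0, 0 and 17 counts in WT and 5, 19 and 19 counts in M1BP RNAi, and ocn, a sperm-associated gene, held 0, 0 and 26 counts against 10, 15 and 15. Mst84Da (0, 0 and 13 counts in WT, against 3, 12 and 4 counts in M1BP RNAi) and betaTub85D (3, 0 and 30 against 11, 41 and 20) were also lowest in WT replicates 1 and 2. Others went against this division: Mst87F was even over the libraries, with 15, 9 and 14 counts in WT against 14, 17 and 10 in M1BP RNAi, topi (1, 0 and 1 against 5, 6 and 3) placed WT replicate 3 with its own group, and can held at most 2 counts. The 9 testis markers together held 19, 10 and 105 counts in WT and 48, 118 and 79 counts in M1BP RNAi, a summed level of 0.343 to 2.64 CPM in WT and 0.867 to 2.36 CPM in M1BP RNAi. Of the testis list, aly, a regulator of spermatocyte transcription, was at 0 counts in all 6 libraries, as were the germline genes bam and osk. The male accessory gland genes held at most 1 count. Some markers of other tissues also set WT replicates 1 and 2 apart, as the highest libraries. The neuron gene Syt1 was at 2.88, 2.64 and 0.302 CPM in WT and 1.17, 0.841 and 0.531 CPM in M1BP RNAi. nSyb and, by a small margin, elav were also highest in these libraries, as were the tracheal genes trh and btl. The neuron genes brp and para were not. The part of testis tissue in the roX levels was not tested, and in bulk RNA more cells of a type and more RNA per cell cannot be told apart.

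The reads assigned to roX1 came from its own strand. The counting separated strands: for 37 genes nested in exons of an abundant opposite-strand gene, the read density had a median of 0.518% of the density of the host. roX1 shares 392 exon bases (7.17% of its exons) with ec on the opposite strand, and no member shared exon bases with a gene on its own strand. Of the 4 nearest tested genes beside the roX loci, ec, yin and CG11695 did not follow the division of the libraries, whereas nod, at a low level, did. ec, which encodes a ubiquitin protease, was at 7.03, 9.99 and 4.08 CPM in WT and 9.34, 7.63 and 6.31 CPM in M1BP RNAi, with overlapping groups and a log2 fold change of 0.15 ± 0.32 (SE, edgeR adjusted p = 0.767). On the other side of roX1, yin, a peptide transporter gene, was at 0.201 to 0.756 CPM in all libraries (log2 fold change 0.14 ± 0.54, edgeR adjusted p = 0.878).

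At the roX2 locus, CG11695 was at 3.64, 3.26 and 4.03 CPM in WT and 5.38, 5.97 and 5.72 CPM in M1BP RNAi. Its groups did not overlap and WT replicate 3 lay with the other WT libraries, unlike roX2. It differed by 0.64 ± 0.11 on the log2 scale (SE, edgeR adjusted p = 0.00702), short of the threshold of 0.001 used for calls. nod, a kinesin-like gene used in female meiosis, was at 0.103, 0.172 and 0.453 CPM in WT and 0.253, 0.260 and 0.275 CPM in M1BP RNAi. WT replicates 1 and 2 were the lowest of the 6 libraries and WT replicate 3 the highest, so the groups overlapped. The comparison of the groups (log2 fold change 0.12 ± 0.57, SE, edgeR adjusted p = 0.903) does not address that division.

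Among the protein subunits, msl-2 was the only one that differed clearly between WT replicate 3 and the other WT libraries. msl-2 (2L, 3462218 to 3466112, minus strand) encodes the subunit whose absence keeps the complex from forming in females. It was at 5.90, 6.01 and 11.6 CPM in WT and 6.36, 6.75 and 10.5 CPM in M1BP RNAi. WT replicate 3 and M1BP RNAi replicate 3 were high and the other 4 libraries lay close together, so the groups overlapped almost fully. The means were 7.82 ± 3.23 CPM in WT and 7.87 ± 2.28 CPM in M1BP RNAi (SD, n = 3). The log2 fold change was 0.01 ± 0.32 (SE, 95% interval -0.62 to 0.63, edgeR adjusted p = 0.990), and without WT replicate 3 it was 0.45 ± 0.23 (adjusted p = 0.172).

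msl-1, which encodes the scaffold of the complex, showed the opposite arrangement. msl-1 (2L, 18683720 to 18688800, minus strand) was at 9.47, 8.10 and 8.94 CPM in WT and 7.01, 7.31 and 7.02 CPM in M1BP RNAi. Each M1BP RNAi library was under the lowest WT library, and WT replicate 3 was between the other WT libraries. The means were 8.84 ± 0.690 and 7.11 ± 0.172 CPM (SD, n = 3), and the log2 fold change was -0.31 ± 0.09 (SE). The edgeR adjusted p of 0.0403 did not reach 0.001, it lay between 0.0370 and 0.202 when any 1 library was left out, and DESeq2 gave 0.133. Without WT replicate 3 the log2 fold change was -0.26 (edgeR adjusted p = 0.105). The ratio of msl-2 to msl-1 counts was 0.622, 0.742 and 1.29 in WT and 0.907, 0.923 and 1.496 in M1BP RNAi.

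mle (2R, minus strand) and mof (X, 5873840 to 5876853, minus strand) also had lower levels in M1BP RNAi without overlap of the groups. mle, the RNA helicase that remodels the roX RNAs for assembly, was at 16.3, 16.3 and 17.2 CPM in WT and 15.2, 14.8 and 13.6 CPM in M1BP RNAi. Every M1BP RNAi library was below every WT library by a small margin, with a log2 fold change of -0.19 ± 0.08 (SE, edgeR adjusted p = 0.121), and of -0.11 ± 0.09 (adjusted p = 0.363) without WT replicate 3. mof, the histone H4 lysine acetyltransferase, was at 1.88, 1.75 and 1.71 CPM in WT and 1.14, 1.30 and 1.53 CPM in M1BP RNAi, from 51 to 91 counts per library. Its log2 fold change was -0.43 ± 0.18 (SE, edgeR adjusted p = 0.113), and -0.41 ± 0.20 (adjusted p = 0.169) without WT replicate 3. Neither difference passed the threshold, and in both genes WT replicate 3 stayed with the WT libraries.

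msl-3 (3L, 7123213 to 7125533, minus strand), the chromodomain subunit that recognises transcribed chromatin, was the most even of the protein subunits between groups. It was at 3.25, 3.06 and 2.77 CPM in WT and 3.14, 2.82 and 3.07 CPM in M1BP RNAi. The groups overlapped, with a log2 fold change of -0.0066 ± 0.12 (SE, 95% interval -0.25 to 0.23, edgeR adjusted p = 0.975), whose sign turned in 8 of 12 alternative settings. Without WT replicate 3 it was -0.02 ± 0.13 (adjusted p = 0.929).

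**Figure D2:**
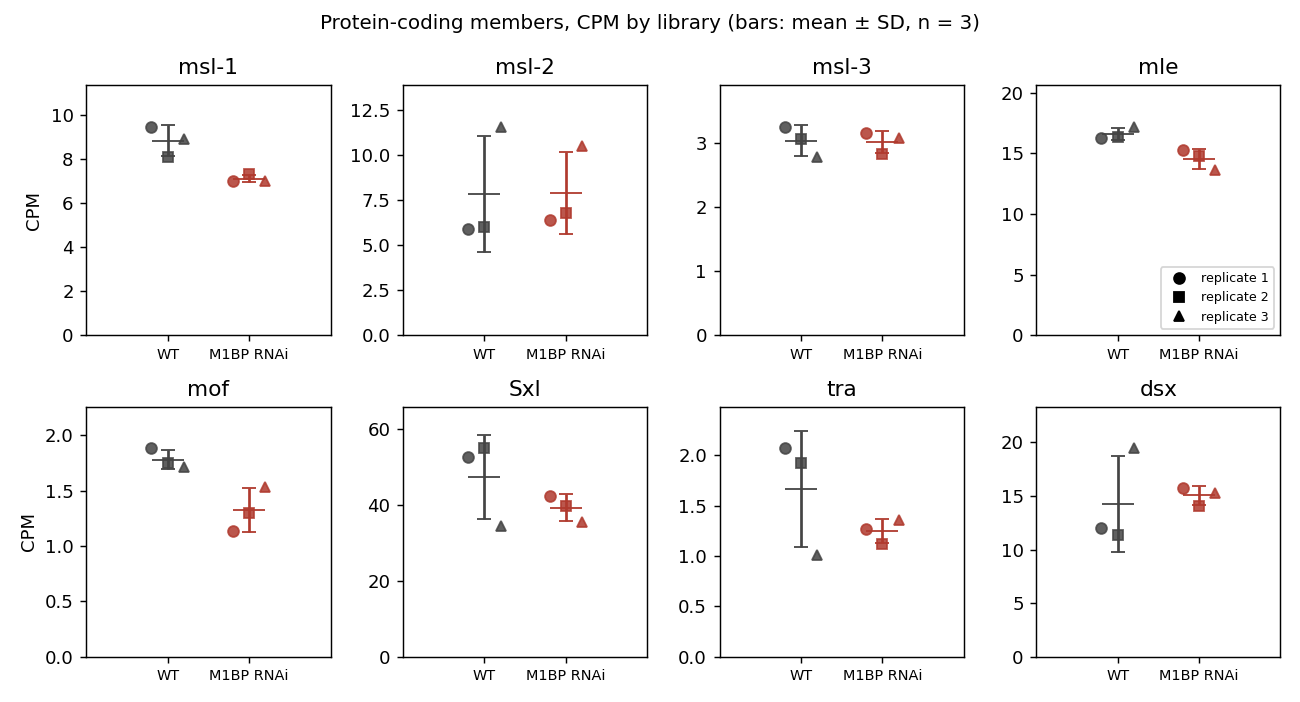
Levels of the 8 protein-coding members in each library, in CPM on linear axes that start at 0, with points for libraries and bars for the group mean and SD (n = 3). WT replicate 3 lies apart from WT replicates 1 and 2 in msl-2, Sxl, tra and dsx and not in msl-1, msl-3, mle and mof.

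The sex determination genes Sxl, tra and dsx all showed their main division within the WT group. Sxl (X, 7074550 to 7098053, minus strand) was at 52.7, 54.9 and 34.6 CPM in WT and 42.5, 39.9 and 35.6 CPM in M1BP RNAi. WT replicates 1 and 2 were the highest of the 6 libraries and WT replicate 3 was the lowest, so the groups overlapped. The means were 47.4 ± 11.1 CPM in WT and 39.3 ± 3.46 CPM in M1BP RNAi (SD, n = 3), with a log2 fold change of -0.27 ± 0.18 (SE, edgeR adjusted p = 0.313). Without WT replicate 3 it was -0.40 ± 0.10 (edgeR adjusted p = 0.0216), whereas it was -0.15 without WT replicate 1 (adjusted p = 0.650) and -0.13 without WT replicate 2 (0.655).

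tra (3L, 16590059 to 16591050, minus strand), which encodes the female-specific splicing regulator, was at 2.07, 1.92 and 1.01 CPM in WT and 1.26, 1.12 and 1.36 CPM in M1BP RNAi, from 40 to 100 counts per library. WT replicate 3 was the lowest of the 6 libraries. The log2 fold change was -0.42 ± 0.29 (SE, edgeR adjusted p = 0.334), and -0.63 ± 0.19 (adjusted p = 0.0422) without WT replicate 3. It was -0.18 without WT replicate 1 (adjusted p = 0.731).

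dsx (3R, 7924323 to 7967408, minus strand), which encodes the transcription factor at the end of the cascade in both sexes, was at 12.04, 11.3 and 19.4 CPM in WT and 15.8, 14.1 and 15.3 CPM in M1BP RNAi. WT replicate 3 was the highest library and WT replicates 1 and 2 the lowest, with the M1BP RNAi libraries between them. The log2 fold change was 0.08 ± 0.21 (SE, edgeR adjusted p = 0.821), and 0.41 ± 0.09 (adjusted p = 0.0171) without WT replicate 3.

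Counts per gene do not resolve which spliced forms were present. The annotation lists 25 transcripts of Sxl, 2 of tra and 7 of dsx, and the sex-specific forms of these genes share most of their exons, so a level says nothing about the female or male form. Of the 6 libraries, WT replicates 1 and 2 were lowest in dsx and msl-2 and highest in tra and Sxl. They were therefore also lowest in 2 ratios of these genes, which restate those levels and add no further observation. dsx held 5.82, 5.89 and 19.3 counts per tra count in WT and 12.5, 12.6 and 11.3 in M1BP RNAi. msl-2 held 0.112, 0.109 and 0.334 counts per Sxl count in WT and 0.150, 0.169 and 0.294 in M1BP RNAi. On this second ratio M1BP RNAi replicate 3 lay nearer to WT replicate 3 than to its own group. M1BP RNAi replicates 1 and 2 lay nearer to WT replicates 1 and 2 than to WT replicate 3. Of the M1BP RNAi libraries, replicate 3 also held the most roX1, roX2 and msl-2 and the least Sxl.

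The distance of WT replicate 3 from WT replicates 1 and 2 was read as a log2 ratio with its counting interval. It was 0.96 for msl-2 (0.77 to 1.15), 0.72 for dsx (0.58 to 0.86), -0.63 for Sxl (-0.72 to -0.54) and -1.0 for tra (-1.54 to -0.49). These distances were not rare, since 11.5%, 16.7%, 19.4% and 10.6% of 8733 tested genes lay at least as far from 0. For roX1 the ratio was 7.75 (6.77 to 8.97), and it was not ranked among all genes because the selection used it. For msl-1, msl-3, mle and mof the ratio was between -0.20 and 0.08, and each interval held 0.

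The spread within WT largely restates the distance of WT replicate 3 and is no further support for it. Coefficients of variation within WT were 41.4% for msl-2, 34.6% for tra, 31.4% for dsx and 23.5% for Sxl, against a median of 13.0% over all 8806 genes. Within M1BP RNAi they were 29.0%, 9.46%, 5.70% and 8.80% with a median of 9.03% over all genes. msl-1, msl-3, mle and mof varied by 3.18% to 7.98% in WT and by 2.42% to 15.0% in M1BP RNAi.

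With roX1 set aside, 0 of the 9 other genes were called higher or lower in M1BP RNAi, where a call is an edgeR adjusted p of 0.001 or less with a change of at least 1.5-fold. Over all genes tested, 2.20% were called higher and 2.88% lower. At an unadjusted p of 0.05, 2 of the 9 (msl-1 and mof) were lower and 0 higher in edgeR, where 22.5% of all genes were lower and 18.9% higher. In DESeq2 1 (msl-1) was lower at that p, where 18.2% of all genes were lower and 16.8% higher. DESeq2 called 0 of the 9, beside 6.04% of all genes higher and 5.04% lower. At an edgeR adjusted p of 0.05 with no minimum fold, 1 of the 9 (msl-1) was lower, where 16.9% of all genes were lower and 13.8% higher.

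Without WT replicate 3 the calls at 0.001 stayed at 0 of 9, against 2.72% of all genes higher and 2.55% lower. At an adjusted p of 0.05 with that library left out, roX2 and dsx were higher and Sxl and tra were lower, where 18.5% of all genes were higher and 16.1% lower. That library is the one the choice of genes rests on, so these 4 values describe its weight in each comparison. The groups did not overlap for 3 of the 9 (msl-1, mle and mof, all lower), while 25.0% of all genes tested were lower and 21.5% higher without overlap. The median log2 fold change of the 9 was -0.19, beside -0.016 over all genes tested.

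**Figure D3:**
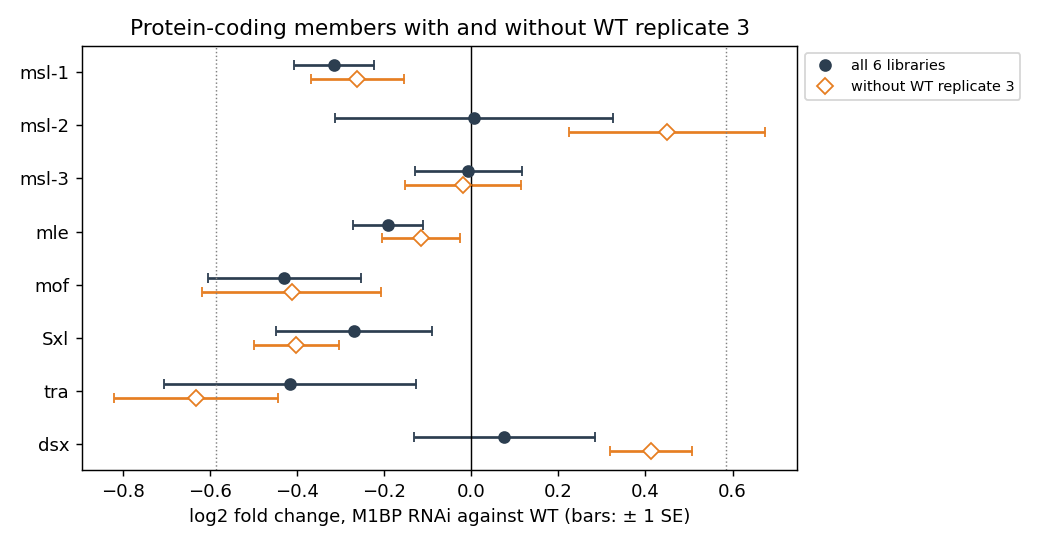
Log2 fold change of the 8 protein-coding members in M1BP RNAi against WT, with bars of 1 SE, for all 6 libraries (filled) and without WT replicate 3 (open), and dotted lines at a change of 1.5-fold. msl-2 goes from 0.01 to 0.45 and dsx from 0.08 to 0.41, each by more than 1 SE of the fit with all 6 libraries. Sxl goes from -0.27 to -0.40 and tra from -0.42 to -0.63. The changes of Sxl, tra, msl-1, msl-3, mle and mof are within 1 SE of that fit.

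Levels of different genes were compared per kilobase of exon. In WT the order by mean was Sxl (5.16 CPM per kb), mle (3.58), msl-2 (2.03), tra (1.93), msl-1 (1.76), dsx (1.58), msl-3 (1.54), roX1 (1.37), roX2 (1.17) and mof (0.591). The ranges of neighbours overlapped except between Sxl and mle and between mle and msl-2, and the roX means stand on WT replicate 3 alone. In M1BP RNAi roX1 came first, at 7.56 ± 3.45 CPM per kb (SD, n = 3), followed by Sxl (4.28), mle (3.14), roX2 (2.94), msl-2 (2.05), dsx (1.66), msl-3 (1.53), tra (1.45), msl-1 (1.42) and mof (0.439). There the ranges of neighbours were separate between roX1 and Sxl, between Sxl and mle and between msl-1 and mof.

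Genes with a pattern like that of roX1 were ranked by Pearson's r of log2 CPM over the 6 libraries, among 2210 genes whose SD was at least 0.5. The r is a description over 6 libraries, in which 2 sit at the bottom of the roX1 scale and 4 at the top, and it mostly reads that division. Of the other members, roX2 had the highest r (0.98), followed by dsx (0.78) and msl-2 (0.62), while Sxl (-0.91) and tra (-0.89) were opposite. The remaining members lay between -0.70 and -0.53. By Spearman's rho, which reads ranks only, the order differed. There msl-1 (-0.89), mof (-0.83) and mle (-0.71) were the most opposite, with Sxl at -0.54 and tra at -0.43.

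Over the genes ranked, the 5 most alike were CG44006 (r = 0.996), CG4822, an ABC transporter gene (0.994), LPCAT, a phospholipid acyltransferase gene (0.993), Uhg3, a host gene of small nucleolar RNAs (0.992), and CR45670, a non-coding RNA (0.990). CR45670 was absent from the same libraries as roX2, with 0, 0 and 133 counts in WT and 294, 265 and 293 counts in M1BP RNAi, although it lies on 3L and not on the X. The 5 most opposite were CR45458 (-0.988), Gyc88E (-0.988), UQCR-11L (-0.982), Evi5 (-0.982) and CG4935 (-0.981). CR45458, a non-coding RNA, was at 14.7, 15.1 and 1.18 CPM in WT and 0.723, 1.02 and 0.727 CPM in M1BP RNAi. Gyc88E, which encodes a guanylyl cyclase subunit, was at 20.5, 11.99 and 1.76 CPM in WT and 1.66, 2.24 and 1.85 CPM in M1BP RNAi.

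Evi5, a Rab GTPase regulator on the X, was at 60.1, 29.7 and 8.08 CPM in WT and 8.76, 8.09 and 8.33 CPM in M1BP RNAi. These genes were ranked for this pattern, and WT replicate 3 was nearer to the M1BP RNAi libraries than to WT replicates 1 and 2 in all those whose values are given, though not always within their range. At r of 0.95 or more there were 59 genes, or 2.67%, and at -0.95 or less 15, or 0.679%. Of 308 X-linked genes ranked, 12 (3.90%) and 5 (1.62%) reached these values. The part of the sex of the pupae in these patterns was not tested.

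The wider pathway was read from 5 lists with 41 genes, of which 32 passed the filter on low counts. Among these 32, 2 were called higher and 0 lower at the threshold that called 2.20% and 2.88% of all genes, their median log2 fold change was -0.08 beside -0.016 over all genes, and 15 had an unadjusted edgeR p below 0.05, as did 41.4% of all genes. At an adjusted p of 0.05 with no minimum fold, 4 were higher and 8 lower, where 13.8% and 16.9% of all genes were.

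Rcd5, a subunit of the NSL complex, in which Mof acetylates histone H4 at the promoters of broadly expressed genes in both sexes, rose in M1BP RNAi. It was at 12.02, 9.82 and 12.7 CPM in WT and 35.8, 43.4 and 39.6 CPM in M1BP RNAi. The groups were far apart and WT replicate 3 stood with WT, as is likely in any gene named because it was called. It rose by 1.78 ± 0.13 on the log2 scale (SE, edgeR adjusted p = 1.64e-04). The adjusted p was above 0.001 when WT replicate 1 (0.00221) or M1BP RNAi replicate 1 (0.00105), 2 (0.00167) or 3 (0.00173) was left out, with the log2 fold change between 1.70 and 1.90.

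Hakai, a ubiquitin ligase of the complex that writes m6A on RNA, a mark needed for proper Sxl splicing, also rose. It was at 7.30, 8.00 and 7.70 CPM in WT and 13.5, 15.5 and 15.5 CPM in M1BP RNAi. No M1BP RNAi library came near the WT range. It rose by 0.95 ± 0.09 on the log2 scale (SE, edgeR adjusted p = 6.12e-04). The adjusted p stayed below 0.001 without WT replicate 3 (7.49e-04) and was between 0.00203 and 0.00605 without WT replicate 1 or 2 or any of the M1BP RNAi replicates.

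The other genes of the lists changed less. Of the 8 cofactors of dosage compensation 0 were called, and Clamp, whose zinc finger protein guides the MSL complex to the X, had a log2 fold change of -0.32 ± 0.07 (SE, edgeR adjusted p = 0.0184). Unr, whose protein acts with Sxl to block msl-2 translation in females, was at 149, 108 and 125 CPM in WT and 97.5, 89.2 and 95.03 CPM in M1BP RNAi (adjusted p = 0.0345). In the NSL list of 6, besides Rcd5, Rcd1 had a log2 fold change of 0.38 (adjusted p = 0.0117) and wds, a WD40 subunit shared with other chromatin complexes, of -0.39 (0.0252).

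In the list of 11 Sxl splicing and m6A factors, members moved in both directions at an edgeR adjusted p of 0.05. fl(2)d and vir, subunits of the m6A writer complex, had log2 fold changes of -0.50 (adjusted p = 0.00345) and -0.55 (0.0176), Doa, a kinase of splicing factors, of -0.34 (0.00787), and Ythdc1, the nuclear m6A reader, of 0.39 (0.0171). In all 4 the groups did not overlap, as in 25.0% (lower) and 21.5% (higher) of all genes tested. These genes were named for that p, so separate groups with WT replicate 3 on the WT side largely follow from the choice.

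Of 9 X signal elements and Sxl promoter regulators, only 4 passed the filter, since sisA, sc, upd1, run and dpn, which act in the early embryo or in other tissues, held at most 4 counts in a library. da, which encodes a bHLH activator of the Sxl promoter, had a log2 fold change of -0.58 ± 0.09 (SE, edgeR adjusted p = 0.00343), and gro, a co-repressor gene, of -0.37 ± 0.08 (adjusted p = 0.0160). Of 7 sex-specific effectors 3 were tested and 0 called. The yolk protein genes Yp1, Yp2 and Yp3, made in adult female fat body, were too low to be tested.

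**Figure D4:**
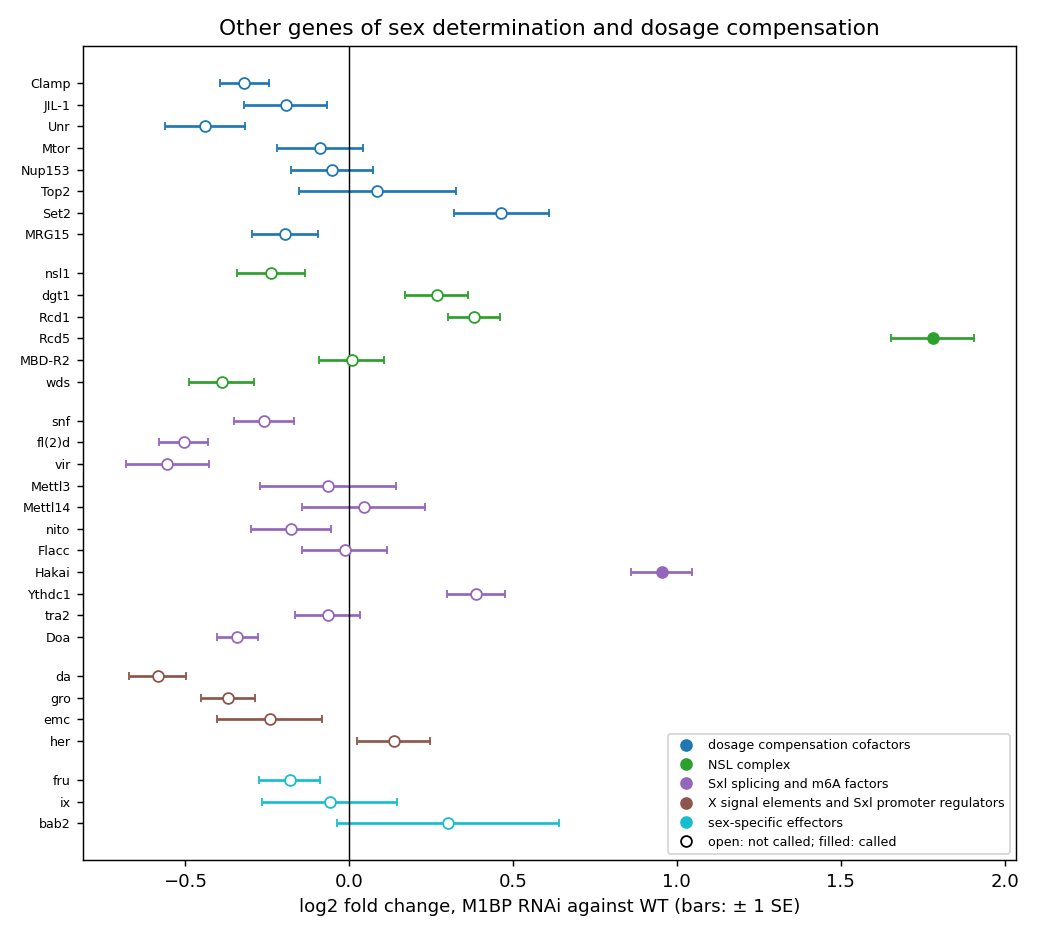
Log2 fold change of the 32 tested pathway genes in M1BP RNAi against WT, with bars of 1 SE, coloured by list. Rcd5 (1.78) and Hakai (0.95), the filled points, are the only genes called at an adjusted p of 0.001 and 1.5-fold, and the others lie on both sides of 0.

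The X chromosome as a whole was compared between the groups by its share of counts and gene by gene. X-linked genes took 12.5%, 12.9% and 12.6% of chromosomal counts in WT, against 12.2%, 12.5% and 12.9% in M1BP RNAi. WT replicate 3, which carried roX1, lay between WT replicates 1 and 2, which did not. The group means were 12.6% ± 0.200 and 12.5% ± 0.316 (SD, n = 3). The exact two-sided permutation test gave p = 0.7 with all 6 libraries, where the smallest possible p is 0.1. Without WT replicate 3 it gave 0.8. This compares WT with M1BP RNAi and does not test the division by roX RNAs.

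Measured gene by gene, the median of 1481 X-linked genes relative to 7212 autosomal genes, as a log2 deviation from each gene's mean, was -0.0125, -0.0228 and 0.0057 in WT and 0.0015, 0.0097 and 0.0018 in M1BP RNAi. WT replicates 1 and 2 had the lowest values and the 4 libraries with roX RNAs were higher. The difference between groups was 0.0142, with an exact two-sided permutation p of 0.3, which does not test the division by roX RNAs. Some autosomal arms varied about as much between libraries. Relative to all tested genes, values ran from -0.0198 to 0.0085 on X, from -0.0075 to 0.0201 on 2L and from -0.0167 to 0.0074 on 3L. The ranges on 2R and 3R were narrower. Of the 1481 X-linked genes tested, 20 (1.35%) were called higher and 27 (1.82%) lower. Their median log2 fold change, relative to that of all genes, was 0.0071, and 0.0256 without WT replicate 3.

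Genes of the Y chromosome gave little signal in any library. Of 113 Y-linked genes in the table, 17 had any count, and together they held 41, 17 and 37 counts in WT, against 46, 62 and 53 in M1BP RNAi. As a share of chromosomal counts this was 1.01, 0.708 and 1.16 per 1000000 in WT and 1.28, 1.88 and 1.56 per 1000000 in M1BP RNAi, without overlap of the groups (0.960 ± 0.230 against 1.57 ± 0.298, SD, n = 3, exact two-sided permutation p = 0.1, the smallest possible). The only Y-linked gene with 50 counts or more in all was CR41506, which held 35, 15 and 27 counts in WT, against 41, 43 and 44 in M1BP RNAi. It was present in the libraries with no roX2 as well, so it did not divide them as the roX RNAs did.

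**Figure D5:**
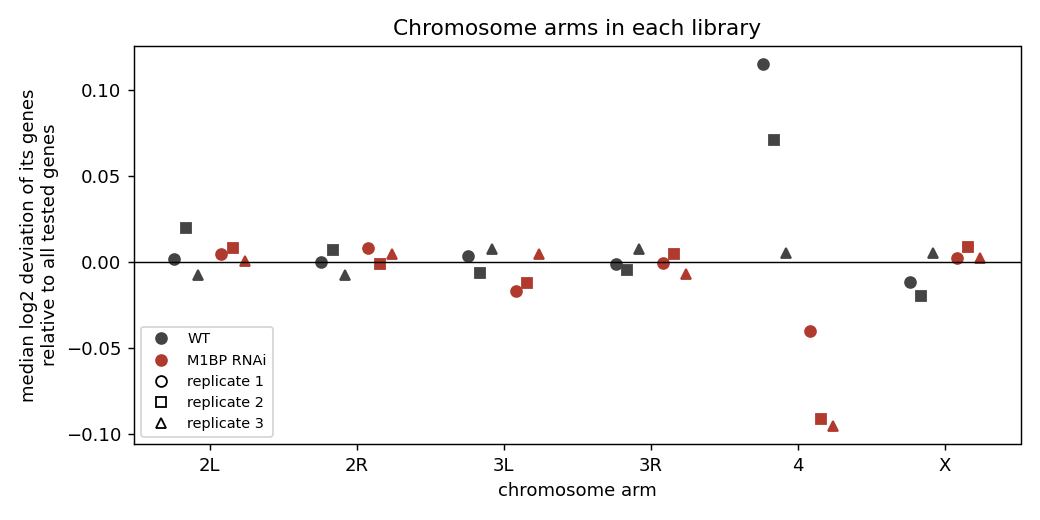
Median log2 deviation of the tested genes of each chromosome arm from their own means over the 6 libraries, relative to all tested genes, with 1 point per library. On the X the 4 libraries with roX RNAs lie just above 0 and WT replicates 1 and 2 below it. The ranges on 2L (-0.0075 to 0.0201) and 3L (-0.0167 to 0.0074) are about as wide as that on X (-0.0198 to 0.0085). Chromosome 4 is the arm with the widest range.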

How the data were processed

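Flight muscle RNA of 6 pools was sequenced from poly(A), strand-specific libraries. The authors deposited raw counts per gene of uniquely mapped reads on dm6, summed over exons, which are not normalised. The submitters' processing notes name bcl2fastq 2.17.1.14, Subread 2.0.3, featureCounts and DESeq2 1.3.0, and aligner settings are not given in the sources used here. The authors' comparison table, with fold changes, standard errors and p-values, was read only for gene symbols (17441 of 17494 IDs). The 1 line that names no gene held 0 counts.

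Groups were taken from sample titles. Counts were tested with edgeR 4.0.16 (R 4.3.3), quasi-likelihood, with TMM scaling, edgeR's filter on low counts, only these 6 libraries and Benjamini-Hochberg adjustment over 8806 genes. Calls required an adjusted p of 0.001 or less and a change of 1.5-fold or more. CPM use TMM-scaled library sizes, the likeness to roX1 uses log2 CPM with a prior count of 2, and CPM per kb use the exon length in the table. Chromosome values of single libraries were compared by an exact permutation test. Replicates differed by more than sampling noise (chi-square per degree of freedom 42.6 to 413). Over all genes WT replicate 2 was the farthest of the WT libraries, at 410 from replicate 1 and 413 from replicate 3. WT replicates 1 and 3 were at 62.3 from each other. The code was tested on simulated data.

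The members and lists were chosen with earlier results of these data known, and 1 list gene is not reported here. Named genes were the 10 members, M1BP, called or role-bearing pathway genes, the nearest tested gene on each side of each roX gene, the 5 most and 5 least roX1-like genes and Y-linked genes of 50 counts or more. Alternatives were DESeq2 1.42.0, RLE scaling, other filters and thresholds, scaling without mtDNA genes, a block for the replicate number and leaving out each library in turn.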

Additional observations from a re-analysis of the deposited data

How the results depend on the processing

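Of the 9 genes other than roX1, 0 were called under all 14 alternatives except an adjusted p of 0.05 with no minimum fold, which gave 1 lower. Pathway genes called higher numbered 2, and 0 to 2 when each library was left out in turn. At an adjusted p of 0.05 with no minimum fold 4 were higher, and 8 were lower instead of 0. The replicate numbers matched the samples only in part. Across 8806 genes the deviations of same-numbered libraries correlated at 0.31 for replicate 1 and 0.27 for replicate 3, the highest values of all pairs. For replicate 2 the value was -0.04, and WT replicate 2 correlated best with M1BP RNAi replicate 1 (0.23). With the replicate number as a block, 0 pathway genes were called higher, the adjusted p of Rcd5 was 0.00118 and that of Hakai 0.00195, calls over all genes were 75 higher and 116 lower instead of 194 and 254, and the log2 fold change of roX2 was 2.77 instead of 1.31 and the median of arm 2R was -0.0074. DESeq2 called 572 higher and 477 lower. With a library left out calls over all genes were 26 to 246 higher and 44 to 231 lower.

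The direction turned where the difference was near 0. The log2 fold change of msl-2 was -0.26 to 0.45 and that of dsx -0.051 to 0.41 when each library was left out in turn, msl-2 turning negative without WT replicate 1 (-0.15), WT replicate 2 (-0.14) or M1BP RNAi replicate 3 (-0.26), and dsx without WT replicate 1 (-0.013) or 2 (-0.051). That of msl-3 was -0.039 to 0.079 with a library left out, 0.014 with DESeq2, 0.020 with RLE scaling, 0.015 with no filter, 0.013 with at least 10 counts in every library and 0.031 without mtDNA genes. The difference in the X share of counts was -0.105 percentage points and -0.267 to 0.0489 with a library left out, above 0 without WT replicate 2 (0.0073) or M1BP RNAi replicate 1. The cause was not tested.

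With a library left out, arm medians relative to all genes ran from -0.0015 to 0.0159 for 2L, from -0.0030 to 0.0054 for 2R, from -0.0188 to -0.0068 for 3L, from -0.0054 to 0.0161 for 3R, from -0.25 to -0.089 for chromosome 4 and from 0.0011 to 0.0256 for X. M1BP missed an edgeR adjusted p of 0.001 under RLE scaling (0.00112), without mtDNA genes (0.00128) and with the replicate number as a block (0.00502). It also missed it with any library left out, as given above. With 40 to 100 counts per library for tra and mof, small differences were not detectable at this depth.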

Other observations

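Chromosome 4, the small dot chromosome, stood farthest of the arms from the median of all genes. Of its 78 tested genes, 0 were called higher and 3 (3.85%) lower, beside 2.88% of all genes, and their median log2 fold change relative to all genes was -0.18. The median log2 deviation of its genes was 0.115, 0.0713 and 0.0054 in WT and -0.0399, -0.0914 and -0.0956 in M1BP RNAi, so the groups did not overlap and WT replicate 3 was the WT library nearest to M1BP RNAi (difference -0.14, exact two-sided permutation p = 0.1, the smallest possible). The median was -0.25 without WT replicate 3 and -0.089 without WT replicate 1. Pof, chosen after its values were seen, encodes a protein that coats chromosome 4, and it was at 2.38, 2.78 and 3.57 CPM in WT and 4.55, 5.39 and 5.23 CPM in M1BP RNAi. Its groups did not overlap, with a log2 fold change of 0.80 ± 0.17 (SE, edgeR adjusted p = 0.0139), short of the threshold for calls, and 14.1% of its exon bases lie opposite exons of Mmp1. A link between these values was not tested.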
